A study of Mus musculus with 6 samples.

Results

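The class IIa histone deacetylases and the MEF2 transcription factors they hold in check were examined in mouse bone marrow stromal cells under adipogenic culture. The group was fixed by gene symbol and holds 7 of the 19938 genes tested: the deacetylases Hdac4, Hdac5, Hdac7 and Hdac9, and the MEF2 genes Mef2a, Mef2c and Mef2d. Each was read from its probe set with 1 gene symbol and the highest mean over the 6 arrays. The arrays compare cultures from mice labelled as lacking the microRNA miR-188 (KO, 3 arrays) with cultures from wild-type mice (WT, 3 arrays), all on the C57BL/6 background and aged 6 months. The medium of both genotypes was α-MEM with 1 µM dexamethasone (a glucocorticoid), 5 µg/ml insulin, 0.5 mM 3-isobutyl-1-methylxanthine (a phosphodiesterase inhibitor) and 10% fetal calf serum. The series concerns miR-188 in the switch from osteoblast to adipocyte differentiation with age, and Hdac9 is one of its reported targets. Neither the length of the induction nor the extent of the deleted sequence is given in these sources.

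Class IIa deacetylases have little deacetylase activity of their own on acetylated histones and repress by bringing a corepressor complex with Hdac3 to DNA-bound partners, of which the MEF2 factors are the classic ones. Kinases of the CaMK, PKD and SIK families phosphorylate them, 14-3-3 proteins bind the phosphorylated form and keep it in the cytoplasm, and MEF2 is then free to activate its targets. Cyclic AMP, which a phosphodiesterase inhibitor raises, acts through protein kinase A to inhibit the SIK kinases. HDAC4 restrains RUNX2 in chondrocytes, HDAC7 and MEF2C have roles in endothelial cells and lymphocytes, and HDAC9 is known as a brake on adipocyte differentiation that declines as preadipocytes mature.

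The microRNA that the KO mice lack is the starting point of the comparison, so both mature strands are shown, with the seed (bases 2 to 8) in capitals. They lie on chromosome X of GRCm38.p6, minus strand, at chrX:7248031-7248051 for the 5p strand and chrX:7247992-7248012 for the 3p strand, and their seeds differ.
mmu-miR-188-5p: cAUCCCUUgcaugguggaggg
mmu-miR-188-3p: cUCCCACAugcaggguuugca

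The probe set of Mir188 itself had log2 levels of 7.22, 7.22 and 7.13 in KO and 7.22, 7.27 and 7.38 in WT, and the groups overlapped. The difference was -0.10 (limma, adjusted p = 0.348). Whether that probe set lies within the deleted part, or reads the mature microRNA, is not given, so it does not check the labels, and KO stands for the arrays labelled KO.

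One member passed the test, Hdac7, which was higher in KO by 0.20 on the log2 scale (1.15-fold). Hdac9 and Mef2c were higher in all 3 KO arrays than in any WT array, by 0.14 and 0.13, and did not pass. Hdac4, Hdac5 and Mef2a differed by 0.02 to 0.03, and Mef2d, whose KO values all lay below its WT values, by -0.07. With 1 call among 7 genes, the members stand against 7.31% of all genes tested, of which 3.34% were called higher in KO and 3.97% lower. Those shares depend on the scaling, since 666 genes were called higher and 791 lower as deposited, 862 and 639 after quantile normalization again, and 859 and 667 after cyclic loess. Groups did not overlap for 5 of the 7 members, 4 of them higher in KO, against 24.9% of all genes (11.4% higher and 13.5% lower in KO). The median difference over the members was 0.03, and over all genes it was 0.00465.

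**Figure D1:**
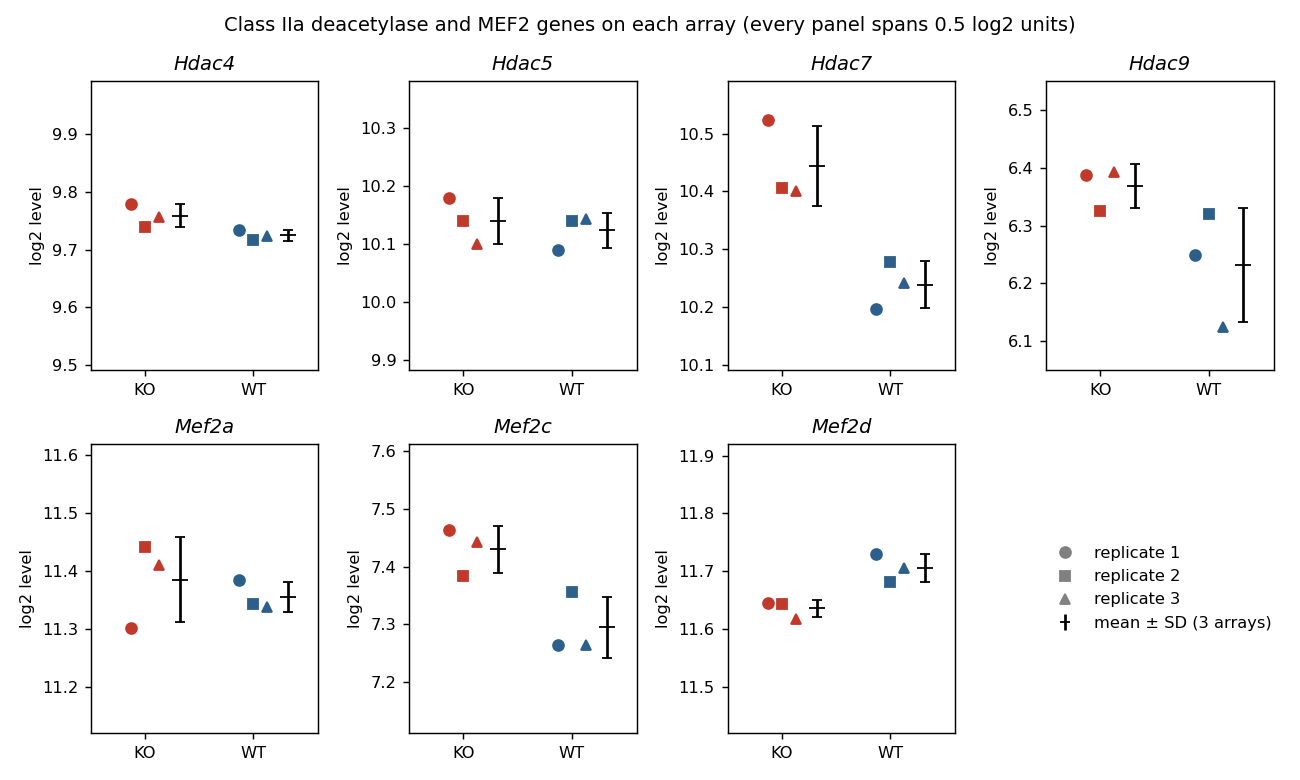
Log2 level (vertical axis, each panel spanning 0.5 log2 units) of the 7 genes on each array, KO left of WT, with marker shapes for replicates 1 to 3 and black bars for the mean ± SD of 3 arrays. Hdac7 and Mef2c lie higher in KO and Mef2d lower without overlap. Hdac4 and Hdac9 lie higher in KO with their closest KO and WT arrays nearly level, and Hdac5 and Mef2a overlap.

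Among the deacetylases, Hdac7 had levels of 10.52, 10.41 and 10.40 in KO and 10.20, 10.28 and 10.24 in WT. The lowest KO array stood above the highest WT array, and KO replicate 1 was the highest of the 6. The means were 10.44 ± 0.07 in KO and 10.24 ± 0.04 in WT (SD, n = 3 arrays each), a difference of 0.20 (SE 0.05, 95% interval 0.10 to 0.31, adjusted p = 0.0460). That call sat close to the threshold and was lost when any 1 array was left out. The difference was then 0.16 without KO replicate 1 (adjusted p = 0.0837), 0.22 without KO replicate 2 (0.0880), 0.23 without KO replicate 3 (0.0933), 0.18 without WT replicate 1 (0.146), 0.22 without WT replicate 2 (0.0791) and 0.21 without WT replicate 3 (0.167).

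Hdac9, the reported target of miR-188, had levels of 6.39, 6.33 and 6.39 in KO and 6.25, 6.32 and 6.12 in WT. All KO arrays were above all WT arrays, but WT replicate 2 came within 0.01 of the lowest KO array, and the WT arrays were spread more widely than the KO arrays. The means were 6.37 ± 0.04 in KO and 6.23 ± 0.10 in WT (SD, n = 3 arrays each), a difference of 0.14 (SE 0.05, 95% interval 0.01 to 0.27) that did not pass after adjustment (adjusted p = 0.220). Both means lay below 6.83, a background level that 13090 genes exceeded. It was set where 95% of 1027 olfactory receptor genes, which stromal cells are not known to use, had a lower mean. The other 6 members lay above it. Hdac9 therefore could not be told from background on these arrays.

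Hdac9 passed in 1 of the 12 alternatives that gave it a value, with array weights, at 0.23 (adjusted p = 0.0297, against 0.0297 to 0.483 over these alternatives). These weights gave WT replicate 3, the array with the lowest Hdac9 level, 7.41, and the other arrays 0.524 to 1.19. Without WT replicate 3 the difference was 0.08 (adjusted p = 0.483).

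Hdac4 had levels of 9.78, 9.74 and 9.76 in KO and 9.73, 9.72 and 9.72 in WT. KO arrays were all higher, with the closest pair of KO and WT arrays nearly level, and the difference was 0.03 (SE 0.03, 95% interval -0.04 to 0.11, adjusted p = 0.601). Its other probe set, which is dimmer, gave a larger difference, with 9.03, 9.30 and 9.10 in KO and 8.88, 8.84 and 8.84 in WT. The groups did not overlap there either, KO replicate 2 was the highest, and the difference was 0.29 (SE 0.07), just short of the threshold in a fit over all 21789 probe sets with 1 symbol (limma, adjusted p = 0.0582). The mean of both probe sets differed by 0.16 (adjusted p = 0.0621). The probe sets of Hdac4 therefore disagree in the size of the difference, and which transcripts each of them reads was not tested.

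Hdac5, a repressor of MEF2 in muscle, had levels of 10.18, 10.14 and 10.10 in KO and 10.09, 10.14 and 10.14 in WT. The groups overlapped throughout, with a difference of 0.02 (SE 0.04, 95% interval -0.07 to 0.10, adjusted p = 0.860). That difference turned below 0 with array weights and without KO replicate 1 or WT replicate 1.

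**Figure D2:**
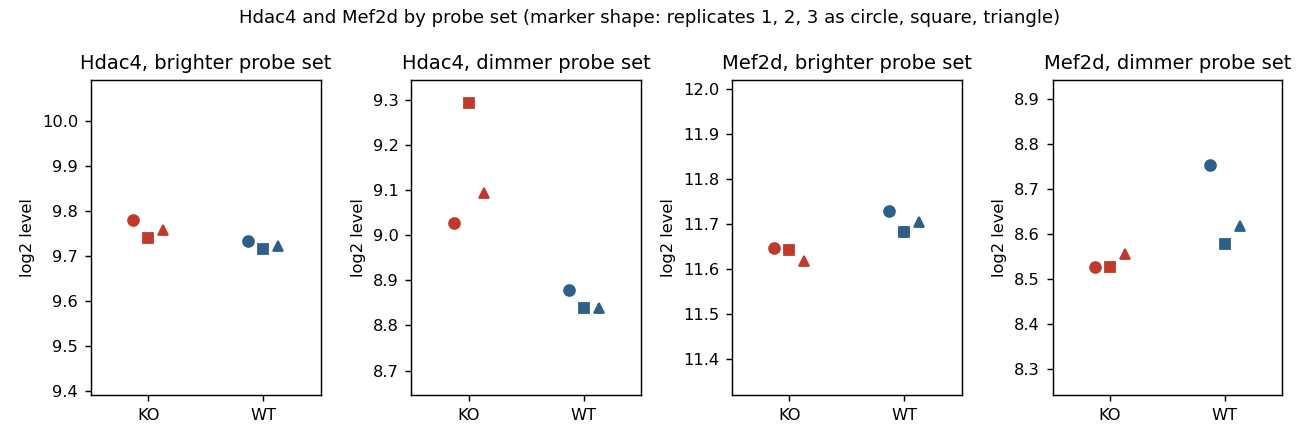
Log2 level (vertical axis, each panel spanning 0.7 log2 units) on each array for both probe sets of Hdac4 and both of Mef2d, KO left of WT. The dimmer Hdac4 probe set separates the genotypes by 0.29 and the brighter by 0.03, and both Mef2d probe sets lie lower in KO.

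Of the MEF2 genes, Mef2c had levels of 7.46, 7.38 and 7.44 in KO and 7.26, 7.36 and 7.27 in WT. All KO arrays were higher, and WT replicate 2 was the nearest to them. The means were 7.43 ± 0.04 in KO and 7.29 ± 0.05 in WT (SD, n = 3 arrays each), a difference of 0.13 (SE 0.04, 95% interval 0.04 to 0.23) that did not pass (adjusted p = 0.113). With array weights it was 0.16 and passed (adjusted p = 0.0187, against 0.0187 to 0.336 over all alternatives).

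Mef2d, a broadly expressed family member, had levels of 11.65, 11.64 and 11.62 in KO and 11.73, 11.68 and 11.71 in WT. Every KO array was lower, and the difference was -0.07 (SE 0.03, 95% interval -0.14 to 0.01, adjusted p = 0.279). Its dimmer probe set had 8.53, 8.53 and 8.56 in KO and 8.75, 8.58 and 8.62 in WT, a difference of -0.11 (SE 0.05, adjusted p = 0.278 over all probe sets) in the same direction.

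Mef2a, which with Mef2d is the common MEF2 form outside muscle and brain, had levels of 11.30, 11.44 and 11.41 in KO and 11.38, 11.34 and 11.34 in WT. KO replicate 1 was the lowest of the 6 arrays while the other KO arrays were the highest, so the groups overlapped. The difference was 0.03 (SE 0.04, 95% interval -0.08 to 0.14, adjusted p = 0.771). Mef2b, the fourth family member, shares its only probe set with other symbols and is not given a value.

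**Figure D3:**
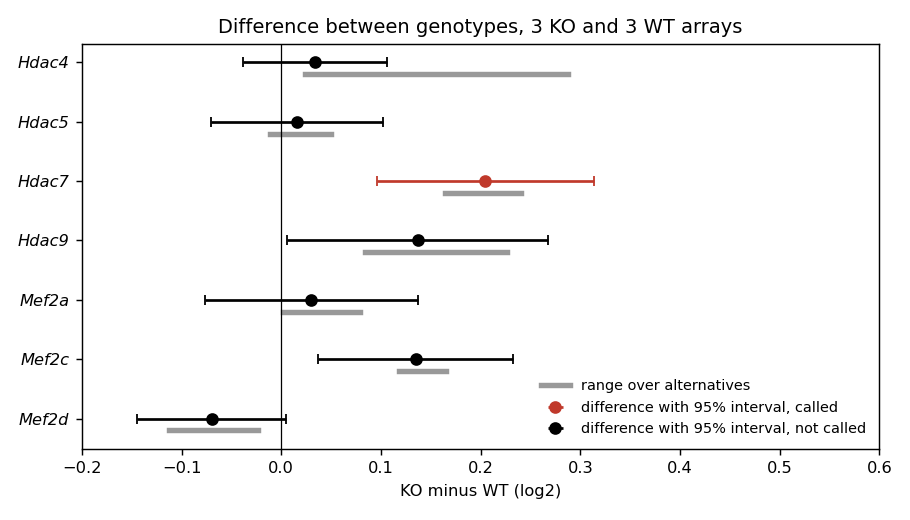
KO minus WT on the log2 scale (horizontal axis) for the 7 genes, with 95% intervals from 3 KO and 3 WT arrays. Grey bars span the values under the alternative settings and, for Hdac4 and Mef2d, the dimmer probe set. Hdac7, in red, is the called gene, at 0.20 with an interval of 0.10 to 0.31, and the intervals of Hdac9 and Mef2c also lie above 0 before adjustment over all genes.

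The start regions of the members were searched for the MEF2 consensus of 10 letters, on both strands, because MEF2 factors can act on their own genes and on those of their repressors. RefSeq windows of 250 bases before to 50 bases after a start were held for all 7 members, 13 windows in all. Of these, 1 of Hdac5 and 1 of Mef2a held a match, against 3.19% of all 32851 windows, and the windows of Hdac4, Hdac7, Hdac9, Mef2c and Mef2d held none of these letters. The match began 20 bases upstream of the Hdac5 start and 2 bases upstream of the Mef2a start. Both members have overlapping groups above, but so do most genes, and a link to the match was not tested. Both windows are shown with the match in capitals, that of Hdac5 at chr11:102230123-102230422 and that of Mef2a at chr7:67372809-67373108 (GRCm38.p6, minus strand). A match is a description of the letters and shows no binding.
Hdac5: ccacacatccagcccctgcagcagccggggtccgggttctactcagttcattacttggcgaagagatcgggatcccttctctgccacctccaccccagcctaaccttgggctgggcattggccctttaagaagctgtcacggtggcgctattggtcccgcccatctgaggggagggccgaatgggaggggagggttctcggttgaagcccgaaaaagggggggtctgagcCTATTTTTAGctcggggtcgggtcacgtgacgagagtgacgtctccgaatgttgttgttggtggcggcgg
Mef2a: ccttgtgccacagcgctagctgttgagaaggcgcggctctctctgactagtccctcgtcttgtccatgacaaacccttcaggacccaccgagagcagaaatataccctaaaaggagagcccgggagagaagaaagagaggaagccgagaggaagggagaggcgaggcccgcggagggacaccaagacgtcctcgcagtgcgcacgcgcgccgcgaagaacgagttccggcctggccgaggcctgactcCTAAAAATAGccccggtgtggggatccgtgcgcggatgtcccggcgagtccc

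The other genes of the pathway were taken from 7 lists, which hold 107 genes, 101 of them measured. Of these 12 rose, 6 fell and 83 did not pass, with a median difference of 0.02. Most lay above background, 90 of 101, and among all genes above background 10.7% were called, 4.75% higher and 5.91% lower in KO. Of the 18 called list genes, 3 kept their call in all 6 fits without 1 array. Each list is described by its counts, and no list was tested as a set.

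None of the 7 deacetylases of classes I, IIb and IV passed, and their median difference was 0.02. Hdac3, the catalytic partner of the class IIa enzymes, had 11.04, 11.02 and 11.06 in KO and 10.95, 10.93 and 10.94 in WT, without overlap, a difference of 0.10 (adjusted p = 0.104). It passed in 4 alternatives, among them both further normalizations (0.15, adjusted p = 0.0401, and 0.14, adjusted p = 0.0398). Hdac2, a class I enzyme, differed by -0.12 (adjusted p = 0.309) with overlapping groups.

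Of 9 measured corepressor and partner genes 1 fell and 8 did not pass, with a median of 0.01. Cbx5, which encodes the heterochromatin protein HP1 alpha, had 10.23, 10.26 and 10.28 in KO and 10.47, 10.46 and 10.46 in WT, and fell by 0.21 (SE 0.03, adjusted p = 0.0126). All KO arrays were lower, and without WT replicate 1 or WT replicate 3 the gene missed the threshold (0.05004 and 0.0727). Bcl6, a repressor that recruits class IIa deacetylases, differed by 0.12 (adjusted p = 0.0738) and passed in 5 alternatives, among them both further normalizations (adjusted p = 0.0454 and 0.0345).

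Of the 19 kinase genes that act on class IIa enzymes 2 rose, 1 fell and 16 did not pass. Their median was -0.03, and 0.00382 after quantile normalization again. Of the 19 genes, 4 lay higher and 4 lower in KO without overlap, against 11.4% and 13.5% of all genes. Both genes that rose encode SIK kinases. Sik1, a cyclic AMP-induced kinase, had 11.69, 11.69 and 11.70 in KO and 11.50, 11.50 and 11.49 in WT, and rose by 0.19 (SE 0.03, adjusted p = 0.0126). Sik3 had 10.31, 10.30 and 10.31 in KO and 10.10, 10.10 and 10.11 in WT, and rose by 0.20 (SE 0.03, adjusted p = 0.0110). For both the arrays within a genotype lay close together and far from the other genotype, and both calls were lost, among the fits without 1 array, without WT replicate 3 alone (adjusted p = 0.0760 and 0.0679). The family's other member, Sik2, which did not pass, differed by 0.13 (adjusted p = 0.107) and was chosen for mention after its value was seen. The calcium-dependent kinase gene Camk1 had 8.76, 8.73 and 8.82 in KO and 8.98, 8.93 and 8.92 in WT. It fell by 0.17 (SE 0.04, adjusted p = 0.0466), and none of the 6 fits without 1 array kept that call (0.0627 to 0.147).

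The list of 14-3-3, nuclear export and phosphatase genes had the lowest median of the 7 lists, -0.05. This median was -0.02 after quantile normalization again and after cyclic loess. Of the 14 genes 4 were lower in KO, 0 were higher and 10 did not pass. Of all genes 3.97% were called lower in KO, and of those above background 5.91%. Without KO replicate 3, WT replicate 1 or WT replicate 3, 0 of the 14 passed. The 14-3-3 genes Ywhaq and Ywhaz fell by 0.24 (SE 0.04, adjusted p = 0.0216) and 0.19 (SE 0.03, adjusted p = 0.0240). Ywhaq had 9.41, 9.43 and 9.41 in KO and 9.67, 9.58 and 9.73 in WT, and Ywhaz had 12.77, 12.83 and 12.81 in KO and 12.98, 12.97 and 13.02 in WT. Neither overlapped between genotypes. The call of Ywhaq was kept only without WT replicate 2 (adjusted p otherwise 0.0683 to 0.0927), and that of Ywhaz only without KO replicate 2 (otherwise 0.0532 to 0.117). Over the mean of its probe sets Ywhaz differed by -0.10 (adjusted p = 0.244). The 5 remaining 14-3-3 genes did not pass. Of these, Ywhab, Ywhag and Ywhah lay higher in KO without overlap, with differences of 0.07, 0.08 and 0.08 (adjusted p = 0.230, 0.218 and 0.258). Ywhae lay lower without overlap, with a difference of -0.11 (adjusted p = 0.165). Over the whole list, 3 genes lay higher and 8 lower in KO without overlap, against 11.4% and 13.5% of all genes.

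Ppp2r1a, the scaffold subunit of protein phosphatase 2A, fell by 0.20 (SE 0.03, adjusted p = 0.0172), with 12.65, 12.59 and 12.59 in KO. Its 3 WT values were exactly equal at 12.80, a tie that median polish can give and no sign of precision. Ppp1cb, a catalytic subunit of protein phosphatase 1, had 11.56, 11.58 and 11.58 in KO and 11.75, 11.70 and 11.75 in WT, and fell by 0.16 (SE 0.03, adjusted p = 0.0303). The call of Ppp2r1a was lost without KO replicate 2, KO replicate 3, WT replicate 1 or WT replicate 3 (adjusted p = 0.0536 to 0.0910) and after quantile normalization again (0.0629). That of Ppp1cb was kept only without WT replicate 2 among these fits (otherwise 0.0696 to 0.136), and was lost under both further normalizations (0.0804 and 0.0531).

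Of 21 MEF2 activators, coactivators and calcineurin genes 2 rose and 19 did not pass. Their median was 0.03. Ep300, the acetyltransferase p300 that MEF2 recruits, had 10.87, 11.04 and 10.90 in KO and 10.73, 10.64 and 10.67 in WT. It rose by 0.26 (SE 0.05, adjusted p = 0.0352), and none of the 6 fits without 1 array kept that call (0.0583 to 0.148). Rcan2, a regulator of the phosphatase calcineurin, had 8.73, 8.75 and 8.75 in KO and 8.52, 8.58 and 8.52 in WT. It rose by 0.20 (SE 0.03, adjusted p = 0.0157), and passed only without KO replicate 1 or WT replicate 2 among those fits (otherwise 0.0503 to 0.0899).

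Of 21 reported MEF2 targets 3 rose and 18 did not pass. Their median was 0.05, but 0.00791 without WT replicate 1 and 0.01 without WT replicate 3. Of the 21 targets 8, most of them muscle genes, lay below background. Ppargc1a, the coactivator that drives mitochondrial genes, had 9.62, 9.57 and 9.56 in KO and 9.19, 9.17 and 9.17 in WT. It rose by 0.41 (SE 0.03, adjusted p = 0.00292). The orphan nuclear receptor gene Nr4a1 had 9.13, 9.06 and 9.04 in KO and 8.71, 8.75 and 8.76 in WT, and rose by 0.34 (SE 0.04, adjusted p = 0.00643). Both calls held in all 6 fits without 1 array (adjusted p = 0.0143 to 0.0347 and 0.0216 to 0.0498). Klf4, a Krüppel-like transcription factor gene, had 9.30, 9.25 and 9.35 in KO and 9.16, 9.13 and 9.08 in WT. It rose by 0.18 (SE 0.04, adjusted p = 0.0470), and again none of those 6 fits kept the call (0.0628 to 0.184). Jun and Klf6, also targets, were named after their values were seen. Neither passed, with differences of -0.11 each (adjusted p = 0.0797 and 0.0959), and their KO arrays were all below their WT arrays. Groups did not overlap for 4 targets higher and 2 lower in KO, against 11.4% and 13.5% of all genes.

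Nr4a1 was chosen after its values were seen as the target that rose with the most half-sites in its start region. Its window, chr15:101266596-101266895 (GRCm38.p6, plus strand), has no MEF2 match and 4 copies of the cyclic AMP response half-site TGACG, all read on the other strand as CGTCA and shown in capitals. The windows of Ppargc1a and Klf4, the other targets that rose, hold 1 half-site each and no MEF2 match. Of all windows, 20.8% hold at least 1 half-site on either strand and 0.231% hold 4 or more. Half-sites also lie in windows of members that did not pass. That of Hdac4 holds 3 and that of Hdac5 holds 2, while those of Hdac9, Mef2a, Mef2c and Mef2d hold none. The 4 windows of Hdac7, the called member, hold none either. The windows of the targets that did not pass were not compared. The copies describe these letters only, and a link to the rise was not tested.
Nr4a1: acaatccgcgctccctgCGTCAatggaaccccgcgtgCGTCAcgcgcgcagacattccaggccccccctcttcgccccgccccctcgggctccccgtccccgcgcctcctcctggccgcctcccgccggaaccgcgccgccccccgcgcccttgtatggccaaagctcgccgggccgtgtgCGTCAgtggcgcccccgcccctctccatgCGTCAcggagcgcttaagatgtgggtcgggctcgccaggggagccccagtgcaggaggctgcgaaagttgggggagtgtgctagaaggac

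The list of bone and cartilage partners and targets had the highest median of the 7 lists, 0.10, against 0.00465 over all genes. The list's median was 0.15 after quantile normalization again and 0.14 after cyclic loess. Of its 11 measured genes 5 were higher in KO, none was lower and 6 did not pass. Of all genes 3.34% were called higher in KO, and of those above background 4.75%. The list was chosen with earlier results of these data known, so its count is a description only. Without WT replicate 1 or WT replicate 3 only 1 of the 11 passed. Mmp13, a collagenase gene of hypertrophic cartilage and bone, had 10.25, 10.38 and 10.30 in KO and 9.89, 9.82 and 9.86 in WT. It rose by 0.46 (SE 0.04, adjusted p = 0.00386), and the call held in all 6 fits without 1 array (adjusted p = 0.0159 to 0.0385). Sox9, the master transcription factor of cartilage, had 11.20, 11.10 and 10.99 in KO against 10.68 on all 3 WT arrays, which were tied, and rose by 0.41 (SE 0.05, adjusted p = 0.00927). It missed the threshold without WT replicate 1 or WT replicate 3 (0.0520 and 0.0647).

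Both measured RUNX genes, of the transcription factor family that class IIa enzymes bind, rose. Runx3 had 11.04, 11.05 and 11.00 in KO and 10.82, 10.82 and 10.81 in WT, a rise of 0.21 (SE 0.03, adjusted p = 0.0127). Runx1 had 10.38, 10.33 and 10.38 in KO and 10.18, 10.19 and 10.19 in WT, a rise of 0.18 (SE 0.03, adjusted p = 0.0195). Smad3, a TGF-beta effector that recruits HDAC4 and HDAC5 to RUNX2, had 10.10, 9.98 and 10.10 in KO and 9.87, 9.86 and 9.86 in WT, a rise of 0.20 (SE 0.04, adjusted p = 0.0411). Runx3 missed the threshold without WT replicate 1 or WT replicate 3 (0.05004 and 0.0766). Those of Runx1 and Smad3 were kept only without KO replicate 2 (otherwise 0.0526 to 0.0953 and 0.100 to 0.155). Runx2 itself was not analysed here.

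**Figure D4:**
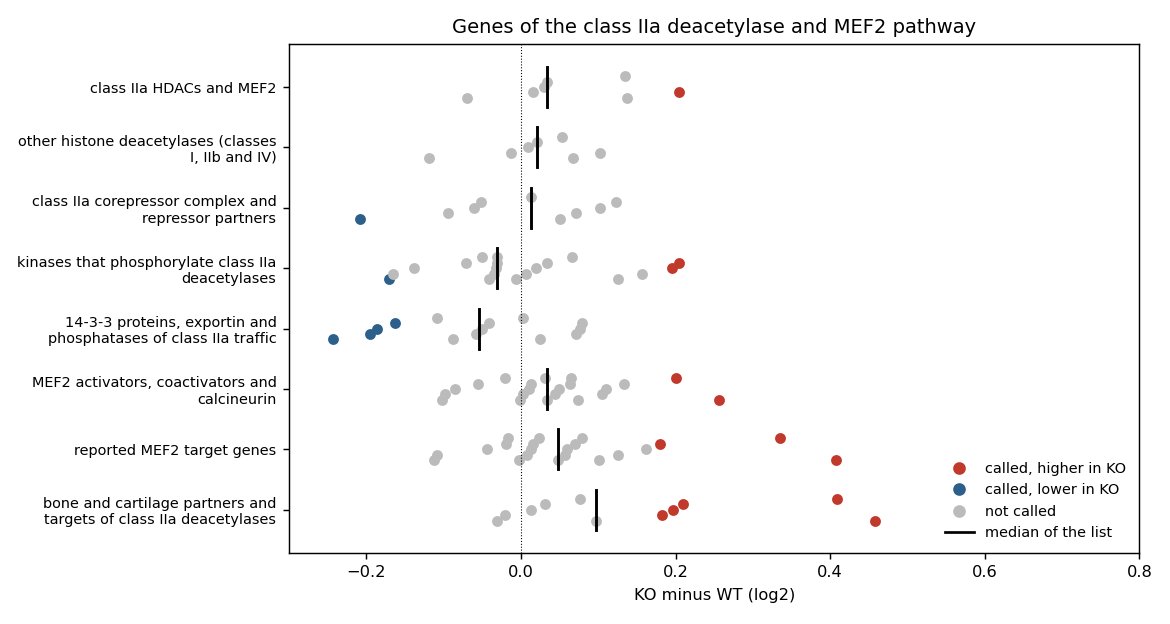
KO minus WT on the log2 scale (horizontal axis) for each measured gene of the members and the 7 pathway lists (rows). Red and blue points are genes called higher and lower in KO, grey points did not pass, and black lines are list medians. The called 14-3-3 and phosphatase genes all lie below 0, and the called MEF2 targets and bone and cartilage genes all lie above 0.

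By their pattern over the 6 arrays, the genes most alike Hdac7 were Tmem41a, H2-Q2 and Lrrc32, with Pearson correlations of 0.998, 0.993 and 0.993. Those most alike Hdac9, which itself lay below background, were Plaur, the urokinase receptor gene, Kcnq5 and Zdhhc12, at 0.987, 0.973 and 0.973. Of all these genes only H2-Q2 was called between genotypes (limma, adjusted p = 0.0286). H2-Q2 belongs to a family of close copies, so its probe set may read more than that gene. The genes most alike were taken from 12531 named genes above background, of which 611 correlated with Hdac7 and 120 with Hdac9 above 0.9. These are descriptions over 6 arrays that share 2 genotypes, and such values are common at that number.

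The labelled cell type was set against its markers. Of 8 stromal markers 7 lay above background, among them Pdgfra, Pdgfrb, Cxcl12 and Col1a1, while Lepr lay below it. In KO 2 of the 8 were higher, 2 lower and 4 not called. Of 6 adipocyte markers 4 lay above background, while Adipoq and Lep lay below background. Only 1 was called, Fabp4, which was lower in KO with a difference of -0.33 (limma, adjusted p = 0.0186). Endothelial and lymphoid cells are known to use Hdac7 and Mef2c. The mean level of 7 endothelial markers ran from 6.43 to 6.51 over the KO arrays and from 6.50 to 6.55 over the WT arrays, with 3 of 7 above background and 1 called, lower in KO. That of 6 B cell markers ran from 6.19 to 6.29 in KO and from 6.21 to 6.31 in WT, and that of 6 T cell markers from 6.62 to 6.75 in KO and from 6.55 to 6.76 in WT, with 3 of 6 above background and 0 called in each list. Of 7 macrophage markers 1 lay above background and was lower in KO. Of 11 muscle markers 8 lay above background, and of 6 neuron markers 4, with 0 called in each list. Lying above this background therefore does not by itself tell the cell types apart. In such bulk samples, a change in the share of a cell type and a change in RNA per cell cannot be told apart. The 6 arrays had medians of 7.19 to 7.23 over all probe sets.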

How the data were processed

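Expression was measured on 6 single-colour Affymetrix gene arrays, 3 KO and 3 WT, grouped by the sample titles. The deposited values are log2 expression levels. The authors made them with RMA (robust multi-array averaging) and used Partek and Affymetrix Expression Console, as the submitters' processing notes state without versions. RMA corrects background, scales the arrays to each other and summarises each probe set by median polish, so differences are relative to the other genes and arrays of a group can tie exactly.

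Of 35556 probe sets, the platform annotation, which can be old, gave 21789 exactly 1 gene symbol, 1621 several and 12146 none. Symbols were updated by gene identifier, and 21698 of the 21789 were found in RefSeq's table for GRCm38.p6. Each gene was represented by its 1-symbol probe set with the highest mean over the 6 arrays, which gave 19938 genes.

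KO and WT were compared with limma 3.58.1 in R 4.3.3 (lmFit and eBayes, two-sided, no covariates), checked on simulated data. P-values were adjusted by Benjamini-Hochberg across these 19938 genes, with calls made below 0.05. Intervals are 95% intervals of that fit. The labels call the replicates biological but do not tie them to separate mice, so the p-values cover the spread between arrays, which may be technical. The number of arrays limits the precision. No 2 arrays held identical values.

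The members, lists and settings were chosen with earlier results of these data known. Named were the members, each called list gene (with fewer than 2 called, the genes with the smallest p until 2 were named), and the 3 genes most alike Hdac9 and any called member. Sik2, Jun, Klf6, 4 further 14-3-3 genes and the markers are named outside that rule. Replicate numbers are shared by the genotypes, but the deviations of same-numbered arrays from their group means correlated at -0.30, -0.26 and -0.02 across genes, so the arrays were treated as unpaired. The alternatives were 2 further normalizations, array weights, another variance prior, a filter on dim genes, the mean over probe sets, a replicate block and leaving out each array. A fit over all 21789 probe sets with 1 symbol was added after the data were seen. Promoter and microRNA sequences are RefSeq's, on GRCm38.p6.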

Additional observations from a re-analysis of the deposited data

How the results depend on the processing

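Hdac4, Hdac7, Mef2a, Mef2c and Mef2d kept their sign in all 13 alternatives, and Hdac5 did not. Hdac9 kept its sign in the 12 that gave it a value, since the filter on dim genes leaves it out. Hdac7 lost its call with the replicate block (0.20, adjusted p = 0.179) and without any 1 array (differences 0.16 to 0.23), while array weights brought in Hdac9 (0.23) and Mef2c (0.16). The number of called members was 3 with array weights, 0 with the replicate block and 0 without any 1 array. The number of called genes was 1457 as deposited, 3418 with array weights, 2275 with the trended and robust variance prior, 2192 over genes above background only, 52 with the replicate block and 189 (without WT replicate 3) to 932 (without WT replicate 2) in the fits without 1 array. All 18 called list genes lost their call with the replicate block (adjusted p = 0.0506 to 0.182). Same-numbered arrays share only a number, and the block also takes residual degrees of freedom. A fit without 1 array also has fewer residual degrees of freedom, and its count depended on which array was left out (189 to 932). The cause of these and of the other shifts was not tested. Signal near background limits what Hdac9 can show.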

Other observations

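Among the 5 members whose groups did not overlap, WT replicate 2 was the WT array nearest to the KO mean for 4, Hdac7, Hdac9, Mef2c and Mef2d, and WT replicate 1 for Hdac4. Over all 4958 genes whose groups did not overlap, WT replicate 2 was the nearest for 44.1%, and over all 19938 genes for 39.5%. Members on the same array share its RNA and scaling, so the 4 are not independent.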
